A study of Mus musculus with 36 samples.

Results

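Drug transporters of the kidney carry medicines, hormones, toxins and waste products across the cells of the renal tubule. Described here are 10 mouse genes of these families, listed by name with earlier results of the same data known: the ATP-driven exporters Abcb1a, Abcb1b, Abcc2, Abcc4 and Abcg2, the proton-coupled exporter Slc47a1 (a MATE protein, for multidrug and toxin extrusion), and the organic anion carriers Slco1a6, Slco4c1, Slco3a1 and Slco2b1. They are 10 of the 53715 genes counted. Proximal tubule cells secrete drugs by taking them up from the blood through carriers on the basolateral side and releasing them into the urine through exporters of the brush border. ABC exporters spend ATP for this step, MATE proteins exchange organic cations for protons, and SLCO carriers, also called OATPs, move amphipathic anions such as steroid conjugates, bile acids, thyroid hormones and prostaglandins without sodium. In liver and gut, transport genes of this kind are known to follow the time of day.

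The study sequenced whole-kidney messenger RNA of 36 mice, to ask how the circadian clock of the renal tubule bears on diabetes. Every mouse carried loxP-flanked Bmal1 alleles (Bmal1 lox/lox). The cKOt mice also carried the Pax8-rtTA and LC1 transgenes, through which doxycycline switches on Cre in cells of the renal tubule, so that the vessels, interstitium and blood cells of the same kidney keep Bmal1. Controls were Bmal1 lox/lox littermates without these transgenes. Both genotypes drank doxycycline at 2 mg/ml for 2 weeks from 8 weeks of age. Beginning 1 week later they received streptozotocin (STZ), a toxin of the insulin-producing beta cells, at 50 mg/kg on each of 5 days, or PBS as the vehicle. At zeitgeber time 9, that is 9 hours after lights on, kidneys were removed 8 weeks past the final injection. There were 9 libraries in each group, named PBS-control, PBS-cKOt, STZ-control and STZ-cKOt.

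Each library had between 16.9 M and 22.3 M reads assigned to genes, and the marker genes of proximal tubule, loop of Henle, distal nephron, podocytes, vessels and interstitium were all detected, as whole kidney should show. The targeted gene, Arntl (the symbol of Bmal1), was counted over all of its exons, so its total does not check the deletion itself. Arntl stood at 1.09 to 2.40 CPM (counts per M assigned reads, on scaled library sizes) in PBS-control, 12.9 to 17.4 CPM in PBS-cKOt and 13.0 to 17.1 CPM in STZ-cKOt. In STZ-control 8 libraries lay between 1.18 and 2.64 CPM, and the library labelled STZ-control 2 had 13.4 CPM, inside the cKOt range. It was kept under its label, and where leaving it out ends a call or a count of calls given below, that is said beside it. A further 4 libraries (STZ-control 7 and 8, PBS-cKOt 1 and 3) stood apart with fewer counts from long genes: the slope of log2 CPM on log2 exon length was -0.16 to -0.07 in them and -0.05 to 0.08 in the other 32. Xist reached at most 0.426 CPM and the summed Y-linked genes at least 113.8 CPM in every library, the pattern of male tissue.

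The sequences of the Abcb1 pair and of the upstream regions of Abcc4 and Abcb1b are shown first, because they bear on how far the counts can be told apart and on the clock elements near the start sites. Abcb1a and Abcb1b encode the P-glycoproteins of the mouse, where a pair of neighbouring genes stands for the single human ABCB1. Their coding sequences (transcripts Abcb1a-201 and Abcb1b-201, GENCODE M21) are 3828 bases each in 28 exons, and 88.0% of the 3819 aligned coding bases are identical. The longest identical run has 338 coding bases in exons 13 and 14 (GRCm38, chr5:8702387-8702944 in Abcb1a and chr5:8824707-8825264 in Abcb1b, plus strand). A 90-base part of that run, spliced across both exons, holds the codons of the ABC signature motif of the first ATP-binding domain, here in capitals. A read inside it cannot be given to either gene.
Abcb1a and Abcb1b, shared: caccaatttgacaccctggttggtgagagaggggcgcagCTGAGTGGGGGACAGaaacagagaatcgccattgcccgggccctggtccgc

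The least alike window of the same length lies in exon 16 of both genes (GRCm38, chr5:8714894-8714983 in Abcb1a and chr5:8827333-8827422 in Abcb1b), where 61 of 90 bases are identical. Capitals mark the bases that differ, and a read that spans them can be told apart.
Abcb1a: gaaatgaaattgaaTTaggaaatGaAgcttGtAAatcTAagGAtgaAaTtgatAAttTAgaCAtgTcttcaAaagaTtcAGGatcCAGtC
Abcb1b: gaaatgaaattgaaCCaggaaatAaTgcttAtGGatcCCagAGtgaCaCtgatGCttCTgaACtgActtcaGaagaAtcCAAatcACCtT
Of all stretches of 50 bases in its transcripts, Abcb1a shares 22.5% with any other gene and 16.3% with Abcb1b, and Abcb1b shares 12.8% with any other gene and 11.1% with Abcb1a. The values of the pair below are therefore uncertain to the extent that such reads were assigned or dropped. For the other 8 members at most 6.59% of stretches are shared with any gene.

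RefSeq start sites (GRCm38.p6) matched 8 of the 10 members. In windows from 250 bases before to 50 bases after a start, 4 motifs were searched on both strands: the E-box CACGTG, to which BMAL1 and CLOCK are known to bind, the D-box TTATGTAA or TTACGTAA of the PAR-bZIP factors, the RORE core TAGGTCA of the ROR and REV-ERB receptors, and the antioxidant response element core TGACNNNGC of NRF2. The E-box was in 7.15% of all 32851 such windows, the D-box in 1.06%, the RORE core in 2.61% and the antioxidant core in 12.4%. The 8 members have 13 windows, since some have several starts. Of these windows 1 of 13 held an E-box (Abcc4), 0 of 13 a D-box or RORE core, and 5 of 13 an antioxidant core (1 each for Abcb1a, Abcc2 and Slco4c1, and both of Abcc4). The RefSeq start lies 92986 bases from the GENCODE gene start for Abcb1a and 22372 bases from it for Slco1a6. It also lies away from it for window 2 of Abcc4 (29288 bases) and windows 2 and 3 of Abcg2 (12149 and 56023 bases). For windows 2 and 3 of Slco2b1 the distances are 4498 and 15531 bases. All these windows are not the regions before the GENCODE starts. A match describes letters and shows no binding. The 250 bases before the first Abcc4 start (chr14:118706220-118706469, minus strand, given 5′ to 3′) are shown with the E-box and, nearer the start, the antioxidant core in capitals, and those of Abcb1b (chr5:8797897-8798146, plus strand) hold none of the 4 motifs.
Abcc4: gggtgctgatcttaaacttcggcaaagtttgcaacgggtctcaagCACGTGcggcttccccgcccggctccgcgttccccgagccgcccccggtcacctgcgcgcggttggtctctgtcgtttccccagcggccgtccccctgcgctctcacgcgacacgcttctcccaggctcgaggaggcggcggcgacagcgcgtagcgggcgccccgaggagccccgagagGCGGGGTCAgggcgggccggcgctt
Abcb1b: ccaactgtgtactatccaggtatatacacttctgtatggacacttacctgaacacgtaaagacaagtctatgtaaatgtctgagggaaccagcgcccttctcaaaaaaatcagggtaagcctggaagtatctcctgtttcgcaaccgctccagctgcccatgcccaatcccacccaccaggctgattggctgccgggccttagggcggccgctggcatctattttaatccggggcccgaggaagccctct

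All 10 transporters passed the filter on low counts. Per kilobase of exon, Slc47a1 was the most abundant over the 36 libraries, with a mean of 212.3 CPM per kb, above 99.2% of the 15637 tested genes. Slco1a6 (67.4 CPM per kb), Abcg2 (66.2) and Abcc2 (51.2) followed, then Slco3a1 (21.7), Abcc4 (8.24), Slco4c1 (6.33) and Slco2b1 (4.51). The neighbours Slco1a6 and Abcg2 changed places between groups: Slco1a6 stood at 90.2 ± 12.5 CPM per kb and Abcg2 at 68.1 ± 6.46 in PBS-control, against 52.2 ± 6.20 and 68.9 ± 6.44 in STZ-cKOt (mean ± SD, n = 9). Abcc4 and Slco4c1 did not differ beyond their spread in PBS-control, at 5.87 ± 1.33 and 5.12 ± 2.27 CPM per kb, nor did Slco4c1 and Slco2b1 (4.86 ± 0.699). Abcb1b (0.937) and Abcb1a (0.621) were the lowest, with 52 to 296 and 32 to 131 reads per library. Their order is not read here, because the annotated exon lengths of the pair differ far more than their coding lengths.

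Of the 10 transporters, 6 differed between cKOt and control kidneys of PBS mice, 1 higher and 5 lower in cKOt, at an adjusted p under 0.05 (edgeR's quasi-likelihood test with Benjamini-Hochberg adjustment over all tested genes, used for every adjusted p below). Over all tested genes 23.4% were called in this contrast, 10.9% higher and 12.5% lower. In STZ mice the same comparison called 7 of 10, 2 higher and 5 lower, against 19.6% of all genes (9.52% higher and 10.1% lower). Without the library labelled STZ-control 2, Slco2b1 was no longer among those called lower in STZ mice. STZ called 4 of 10 in control mice, 1 higher and 3 lower, where the background was 12.3% (6.34% higher, 5.93% lower), and 3 of 10 in cKOt mice, 1 higher and 2 lower, where it was 11.6% (6% higher, 5.63% lower). The median log2 fold change of the 10 members was -0.25 for cKOt in PBS mice and -0.21 in STZ mice, and -0.08 and 0.00 for STZ in control and cKOt mice, while the median of all genes lay between -0.01 and 0.00 in each. These 4 contrasts share groups of libraries in pairs and are not independent of each other.

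**Figure D1:**
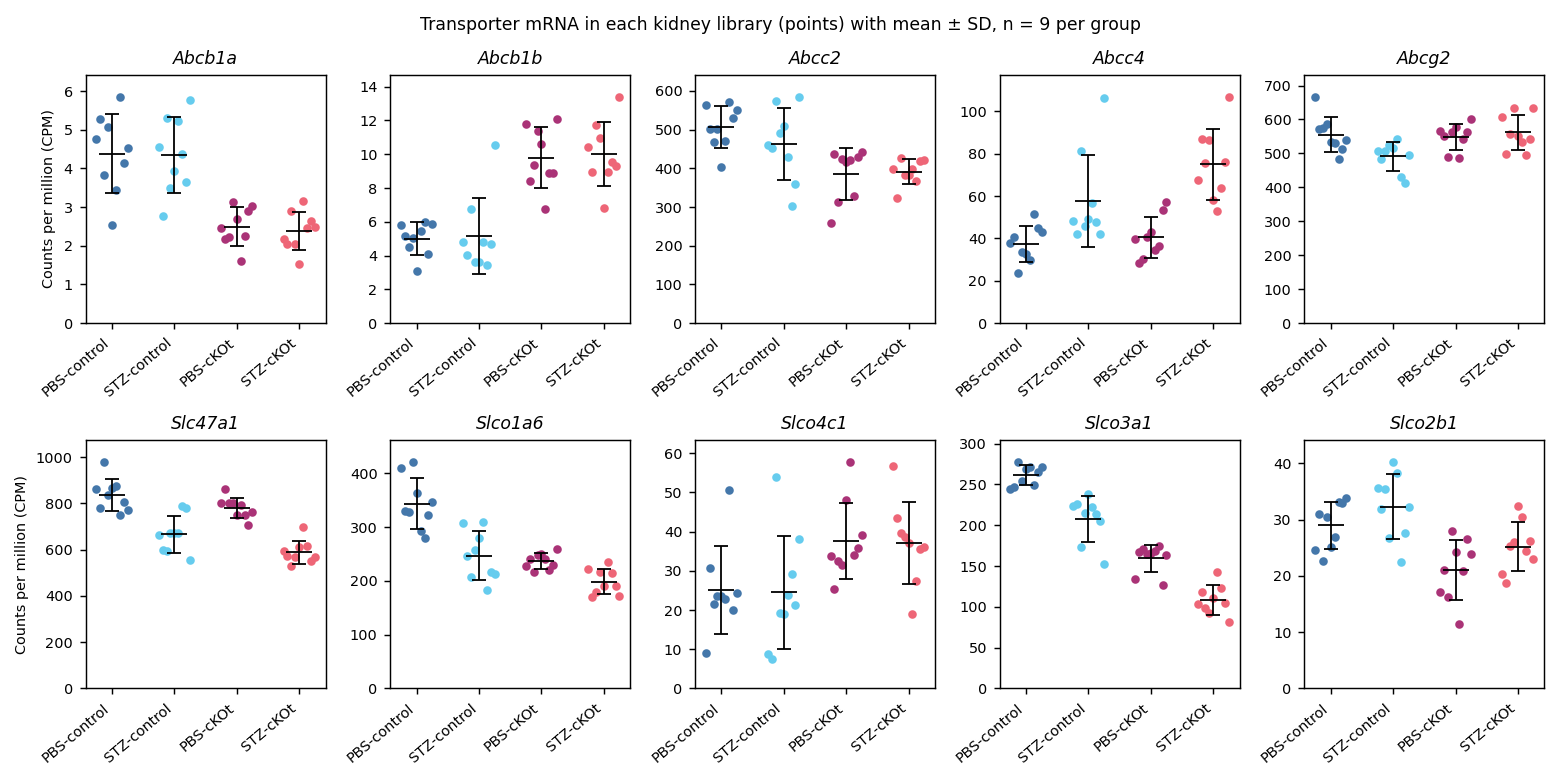
CPM (vertical axes, linear from 0) of each of the 10 transporters in every library, by group (horizontal axes); points are libraries and bars are mean ± SD of 9. Abcb1a is lower and Abcb1b higher in cKOt, with some overlap, Abcc4 has its highest mean in STZ-cKOt (74.9 CPM), and the mean of Slco3a1 is lowest in STZ-cKOt (108.4 CPM).

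Abcb1a and Abcb1b, the P-glycoprotein exporters of lipophilic drugs, moved in opposite directions with genotype. Abcb1a lies at GRCm38 chr5:8660077-8748575, plus strand (ENSMUSG00000040584), and Abcb1b downstream of it at chr5:8798147-8866315 on the same strand (ENSMUSG00000028970). Abcb1a ran from 2.53 to 5.85 CPM with a median of 4.53 in PBS-control, and from 1.60 to 3.14 CPM with a median of 2.47 in PBS-cKOt. All 9 PBS-cKOt libraries lay below the control median and 5 of 9 below every control, a log2 fold change of -0.81 ± 0.15 (SE, adjusted p = 7.76e-05). After STZ the controls ran from 2.77 to 5.78 CPM (median 4.38) and the cKOt mice from 1.52 to 3.15 CPM (median 2.47), with a log2 fold change of -0.86 ± 0.15 (adjusted p = 3.18e-05) and 7 of 9 cKOt libraries below every control. The lowest of those controls, at 2.77 CPM, was the library labelled STZ-control 2.

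Abcb1b rose in cKOt kidneys. It ran from 3.07 to 6.00 CPM in PBS-control (median 5.13) and from 6.76 to 12.1 CPM in PBS-cKOt (median 9.39). The groups did not overlap, as held for 5.12% of all tested genes, and the log2 fold change was 0.97 ± 0.17 (adjusted p = 1.99e-05). In STZ mice the controls ran from 3.45 to 10.5 CPM (median 4.66) and the cKOt mice from 6.79 to 13.4 CPM (median 9.52), a log2 fold change of 0.95 ± 0.16 (adjusted p = 2.77e-05). STZ-control 9 alone reached 10.5 CPM. The other 8 controls stayed at or below 6.77 CPM, and without STZ-control 9 the log2 fold change was 1.16 (adjusted p = 3.51e-08).

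Neither gene was called with STZ. Abcb1a had log2 fold changes of -0.01 ± 0.14 (95% interval -0.30 to 0.28) in controls and -0.06 ± 0.16 (-0.38 to 0.25) in cKOt mice. Abcb1b had 0.05 ± 0.17 (-0.29 to 0.40) and 0.03 ± 0.16 (-0.29 to 0.35). Read within each library, Abcb1b was counted 0.97 to 1.59 times as often as Abcb1a in PBS-control (median 1.17) and 0.788 to 1.82 times in STZ-control (median 1.06). The ratio was 3.05 to 4.78 in PBS-cKOt (median 3.94) and 2.84 to 5.38 in STZ-cKOt (median 4.35), so the ratios of control and cKOt libraries did not overlap. The summed CPM of the pair was 9.38 ± 1.85 in PBS-control against 12.3 ± 2.19 in PBS-cKOt, and 9.49 ± 3.05 in STZ-control against 12.4 ± 2.14 in STZ-cKOt (mean ± SD, n = 9), and these sums overlapped between genotypes. Exons of Abcb1a and Abcb1b also overlap the antisense genes Gm42686 (553 bases) and Gm5106 (143 bases), whose part in the counts was not tested.

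**Figure D2:**
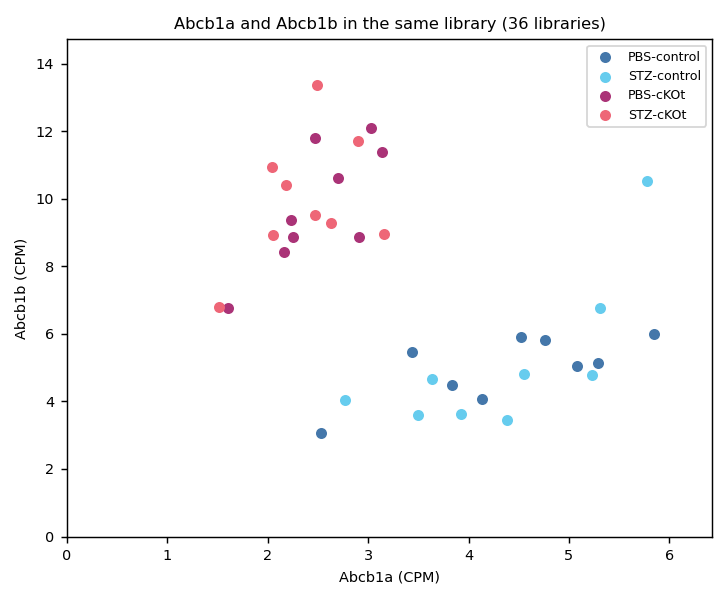
Abcb1a (horizontal axis) against Abcb1b (vertical axis), both in CPM on linear axes from 0, with 1 point per library coloured by group (n = 9 each). The 18 cKOt points lie at low Abcb1a and high Abcb1b, with ratios of 2.84 or more, and the control points at ratios of 1.82 or less.

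Abcc2 (MRP2), the brush border exporter of glutathione and glucuronide conjugates (ENSMUSG00000025194, GRCm38 chr19:43782192-43840740, plus strand), fell in cKOt kidneys of PBS mice. It ran from 403.8 to 570.5 CPM with a median of 502.6 in PBS-control and from 258.8 to 441.7 CPM with a median of 420.6 in PBS-cKOt. The ranges overlapped, all 9 cKOt libraries lay below the control median, and the log2 fold change was -0.40 ± 0.10 (adjusted p = 0.00338). In STZ mice it was -0.24 ± 0.10 (adjusted p = 0.0869), from 302.8 to 583.9 CPM in controls and 324.4 to 427.8 CPM in cKOt. Abcc2 was among the 2 lowest of its group in each of the 4 libraries with fewer counts from long genes, and over the 36 libraries its log2 CPM had r = 0.71 with the length slope, a description in which both share the library. Without those 4 libraries the genotype difference was -0.28 (adjusted p = 0.00453) in PBS mice and -0.35 (adjusted p = 0.000445) in STZ mice. STZ gave -0.13 ± 0.10 in controls (95% interval -0.34 to 0.07) and 0.02 ± 0.10 in cKOt mice (-0.18 to 0.23).

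Abcc4 (MRP4), the brush border exporter of cyclic nucleotides, urate and other organic anions (ENSMUSG00000032849, GRCm38 chr14:118482692-118706219, minus strand), was the only member that rose with STZ in both genotypes. In controls it ran from 23.6 to 51.3 CPM with PBS (median 37.6) and from 41.9 to 106.3 CPM with STZ (median 48.0). All 9 STZ libraries lay above the PBS median, with overlap, and the log2 fold change was 0.62 ± 0.17 (adjusted p = 0.0105), or 0.46 (adjusted p = 0.0393) without STZ-control 9, the highest library. In cKOt mice Abcc4 ran from 28.4 to 57.3 CPM with PBS (median 39.8) and from 53.0 to 106.7 CPM with STZ (median 75.8). There 8 of 9 STZ libraries exceeded every PBS library, and the log2 fold change was 0.89 ± 0.17 (adjusted p = 0.000314). Genotype gave 0.11 ± 0.17 in PBS mice (95% interval -0.23 to 0.45) and 0.37 ± 0.16 in STZ mice (0.04 to 0.71, adjusted p = 0.109). Without STZ-control 9 the latter was 0.53 (adjusted p = 0.00793), so 1 library decides that call. The difference between the STZ effects in the 2 genotypes was 0.26 ± 0.23 (adjusted p = 0.591).

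Abcg2 (BCRP), the exporter of urate and sulphated conjugates (ENSMUSG00000029802, GRCm38 chr6:58584523-58695676, plus strand), varied little. It ran from 483.6 to 665.8 CPM in PBS-control (median 539.5) and 486.3 to 602.0 in PBS-cKOt (median 562.4). With STZ it ran from 414.2 to 542.3 CPM in controls (median 505.6) and 496.1 to 633.6 in cKOt mice (median 552.1). In STZ mice Abcg2 was higher in cKOt by 0.19 ± 0.06 on the log2 scale (adjusted p = 0.0209), with 6 of 9 cKOt libraries above every control, and without the 4 libraries that stood apart it was 0.14 (adjusted p = 0.0834). In PBS mice the genotype difference was -0.02 ± 0.06 (95% interval -0.14 to 0.11). STZ gave -0.18 ± 0.06 in controls (adjusted p = 0.0507) and 0.03 ± 0.06 in cKOt mice.

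Slc47a1 (MATE1), the brush border exit of organic cations such as metformin and creatinine (ENSMUSG00000010122, GRCm38 chr11:61343401-61378345, minus strand), fell with STZ in both genotypes. In controls it ran from 748.3 to 977.1 CPM with PBS (median 835.4) and from 557.1 to 786.6 CPM with STZ (median 671.9). The log2 fold change was -0.33 ± 0.06 (adjusted p = 0.000356), with 7 of 9 STZ libraries below every PBS library. In cKOt mice it ran from 707.4 to 860.9 CPM with PBS (median 792.3) and from 529.1 to 699.5 CPM with STZ (median 571.3). These groups did not overlap, as held for 0.876% of all tested genes, and the log2 fold change was -0.41 ± 0.06 (adjusted p = 1.41e-05). Genotype gave -0.10 ± 0.06 in PBS mice (adjusted p = 0.261) and -0.18 ± 0.06 in STZ mice (adjusted p = 0.0382). Leaving out the 4 libraries with fewer counts from long genes ended the latter call, at -0.10 (adjusted p = 0.268).

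**Figure D3:**
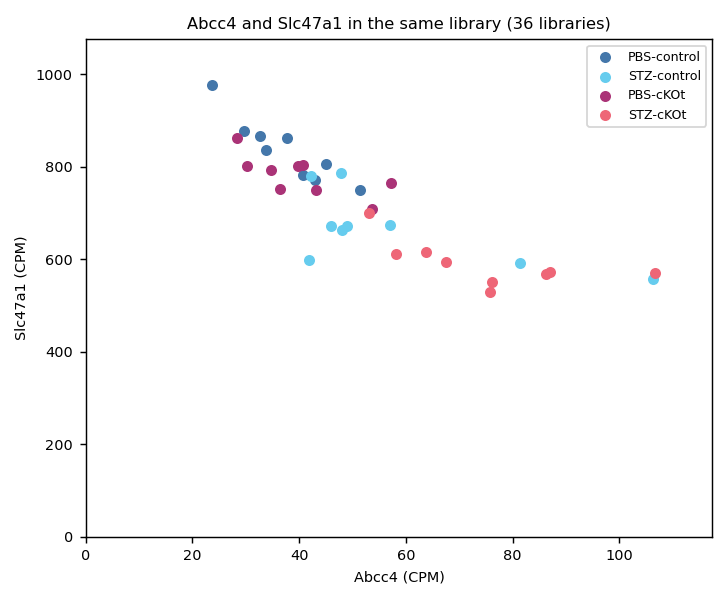
Abcc4 (horizontal axis) against Slc47a1 (vertical axis), both in CPM on linear axes from 0, with 1 point per library coloured by group (n = 9 each). The STZ-cKOt points lie at high Abcc4 and low Slc47a1, and the PBS points at low Abcc4 and high Slc47a1, with no Slc47a1 value below 707.4 CPM.

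Slco3a1 (OATP3A1), a carrier of prostaglandins and other anions (ENSMUSG00000025790, GRCm38 chr7:74275419-74554780, minus strand), fell in all 4 contrasts. It ran from 244.2 to 277.0 CPM in PBS-control (median 265.0) and from 126.8 to 174.6 CPM in PBS-cKOt (median 165.4). These groups did not overlap, as held for 5.12% of all tested genes, and the log2 fold change was -0.71 ± 0.08 (adjusted p = 1.25e-08). With STZ it ran from 152.0 to 238.3 CPM in controls (median 214.6) and from 80.8 to 142.9 CPM in cKOt mice (median 105.0). These groups did not overlap either, as held for 3.5% of all tested genes, and the log2 fold change was -0.94 ± 0.08 (adjusted p = 2.05e-11). With STZ it was lower in controls by a log2 fold change of -0.33 ± 0.08 (adjusted p = 0.00644), with no overlap (1.22% of all tested genes), and in cKOt mice by -0.56 ± 0.08 (adjusted p = 1.21e-05), with 8 of 9 STZ libraries below every PBS library. Between PBS-control and STZ-cKOt the mean went from 261.1 ± 12.2 to 108.4 ± 18.3 CPM.

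Slco1a6, an organic anion carrier of the SLCO1A cluster on chromosome 6 (ENSMUSG00000079262, GRCm38 chr6:142085761-142208521, minus strand), fell with genotype under both treatments and with STZ in controls. It ran from 279.6 to 420.2 CPM in PBS-control (median 330.6) and from 217.2 to 259.0 CPM in PBS-cKOt (median 240.1). The groups did not overlap, as held for 5.12% of all tested genes, and the log2 fold change was -0.54 ± 0.09 (adjusted p = 1.03e-05). With STZ, controls ran from 182.6 to 309.2 CPM (median 246.8) and cKOt mice from 170.6 to 235.3 CPM (median 190.7), a log2 fold change of -0.31 ± 0.09 (adjusted p = 0.00848) with overlap. The STZ effect was -0.48 ± 0.09 in controls (adjusted p = 0.000282). In cKOt mice it was -0.25 ± 0.09 (adjusted p = 0.0511), where 7 of 9 STZ libraries lay below every PBS library.

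Several proximal tubule markers fell with STZ, as Slc47a1 and Slco3a1 did in both genotypes and Slco1a6 in controls, and with genotype the marker lists moved in different directions. The summed level of 7 markers of all its segments was 20436 ± 1167 CPM in PBS-control and 18619 ± 1338 in PBS-cKOt, against 17146 ± 1003 in STZ-control and 17096 ± 1070 in STZ-cKOt (mean ± SD, n = 9), and 4 of 7 fell with STZ in each genotype, while with genotype 2 of 7 fell in PBS mice and 2 fell and 1 rose in STZ mice. The summed level of 5 markers of its late, straight segment (Slc7a13, Slc22a7, Cyp7b1, Atp11a and Slc5a1) was 4045 ± 246, 3548 ± 447, 2973 ± 426 and 2346 ± 376 CPM in the same order, and that of 4 early-segment markers 1573 ± 233, 1691 ± 497, 1355 ± 342 and 2109 ± 451 CPM. Of these late markers 2 of 5 fell with STZ in controls and 3 of 5 in cKOt mice. With genotype 3 of 5 fell in STZ mice and 0 of 5 in PBS mice. The shares of all tested genes that fell in these contrasts were 5.93%, 5.63%, 10.1% and 12.5%, in that order. Without the library labelled STZ-control 2, Slc7a13 was no longer called with STZ in controls (adjusted p = 0.0520) nor Atp11a with genotype in STZ mice (adjusted p = 0.0700). No marker of these lists was at 0 in all libraries of a group, and their part in the transporter results was not tested. In whole kidney, fewer cells of a type and less RNA per cell cannot be told apart.

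Slco2b1 (OATP2B1), a broadly expressed carrier of steroid sulphates and statins (ENSMUSG00000030737, GRCm38 chr7:99657804-99711340, minus strand), fell in cKOt kidneys. It ran from 22.7 to 33.8 CPM in PBS-control (median 30.4) and from 11.5 to 28.0 CPM in PBS-cKOt (median 20.97), a log2 fold change of -0.46 ± 0.13 (adjusted p = 0.00695), with 5 of 9 cKOt libraries below every control. With STZ it ran from 22.4 to 40.1 CPM in controls and from 18.7 to 32.5 CPM in cKOt mice. That log2 fold change was -0.36 ± 0.13 (adjusted p = 0.0416), and without the library labelled STZ-control 2 it was -0.36 with an adjusted p of 0.0520. STZ gave 0.16 ± 0.13 in controls (95% interval -0.10 to 0.41) and 0.26 ± 0.13 in cKOt mice (0.00 to 0.52, adjusted p = 0.192).

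Markers of interstitial cells were also lower with genotype where called. The share of all tested genes called lower with genotype was 12.5% in PBS mice and 10.1% in STZ mice. The summed level of 5 fibroblast and mural markers was 174.9 ± 27.3 CPM in PBS-control and 140.8 ± 16.7 in PBS-cKOt, with 4 of 5 lower by the test, and 211.3 ± 18.4 in STZ-control and 177.4 ± 20.8 in STZ-cKOt, with 1 of 5 lower. The summed level of 7 macrophage markers was 116.1 ± 8.27 CPM in PBS-control and 102.3 ± 5.89 in PBS-cKOt (2 of 7 lower), and 127.9 ± 17.2 in STZ-control and 97.1 ± 8.11 in STZ-cKOt (5 of 7 lower). Without the library labelled STZ-control 2, Lyz2 was no longer called in the last of these (adjusted p = 0.101). Their part in the Slco2b1 result was not tested. Exons of Slco2b1 overlap the antisense genes Gm15635 and Gm34280 over 549 bases.

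Slco4c1 (OATP4C1), the basolateral carrier of digoxin, thyroid hormone and uraemic toxins (ENSMUSG00000040693, GRCm38 chr1:96816270-96872171, minus strand), passed the test in no contrast. It ran from 9.04 to 50.6 CPM in PBS-control (median 23.5) and 25.4 to 57.7 CPM in PBS-cKOt (median 34.0). With STZ it ran from 7.53 to 53.8 CPM in controls (median 21.3), the lowest being the library labelled STZ-control 2, and from 18.9 to 56.8 CPM in cKOt mice (median 37.0). The log2 fold change with genotype was 0.58 ± 0.26 in PBS mice (95% interval 0.05 to 1.11, adjusted p = 0.105) and 0.60 ± 0.26 in STZ mice (0.07 to 1.13, adjusted p = 0.107). All 9 PBS-cKOt libraries lay above the control median, yet only 1 of 9 above every control. In PBS-control Slco4c1 had the widest spread of the 10 relative to its mean, at 25.1 ± 11.1 CPM (mean ± SD, n = 9). STZ gave -0.04 ± 0.26 and -0.02 ± 0.26 in control and cKOt mice.

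**Figure D4:**
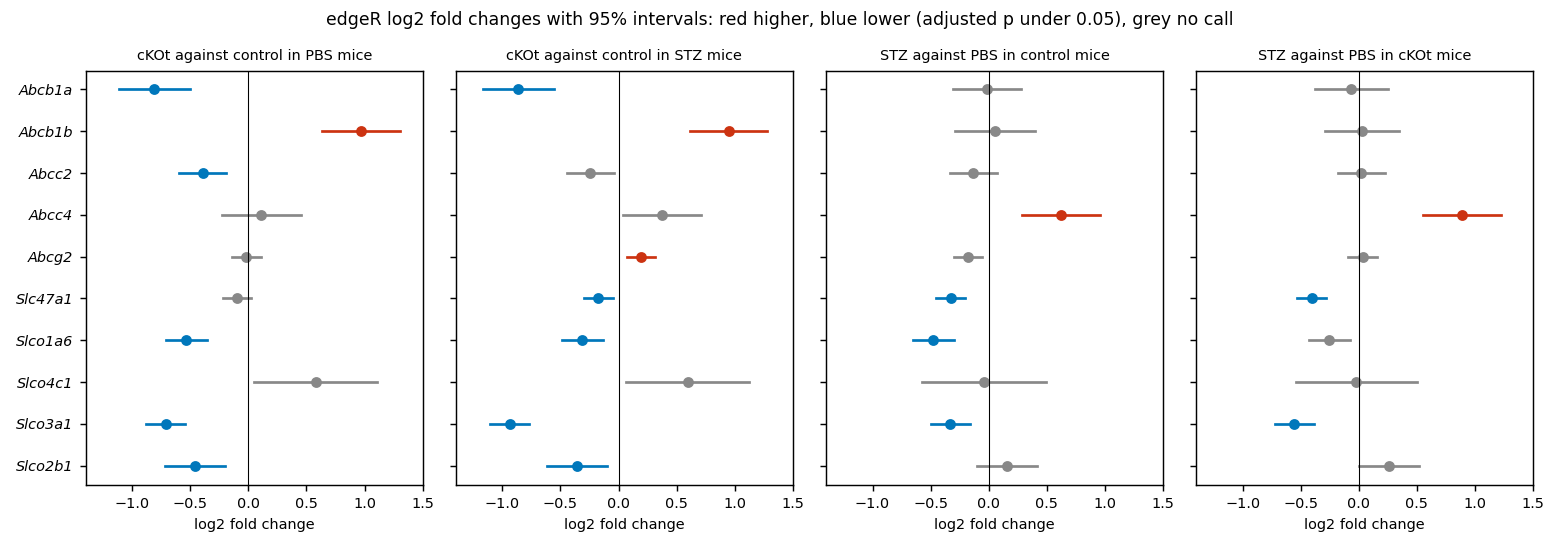
Log2 fold change (horizontal axes) of the 10 transporters (rows) in the 4 contrasts (panels), as edgeR estimates with 95% intervals; red is higher and blue lower at an adjusted p under 0.05, and grey is not called. Genotype calls Abcb1a, Abcb1b, Slco1a6, Slco3a1 and Slco2b1 in both treatments, and STZ calls Abcc4, Slc47a1 and Slco3a1 in both genotypes.

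The difference between the STZ effects in cKOt and control mice was called for 0 of 10 transporters by edgeR, and for 0 of 10 by DESeq2 and by limma voom, against 0.0448% of all tested genes by edgeR. At an unadjusted p under 0.05 edgeR gave 1 of 10, Abcg2, with a difference of 0.21 ± 0.09 (adjusted p = 0.368). The 95% intervals of the others spanned 0, the narrowest for Slc47a1 (-0.25 to 0.10) and the widest for Slco4c1 (-0.73 to 0.76). For Slco3a1 the difference was -0.23 ± 0.12, with an interval from -0.46 to 0.01.

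Among the remaining exporters, 5 of 6 listed ABC genes were tested, and Abcc3 (MRP3), a basolateral exporter of conjugates, was the only gene called. It rose in cKOt from 2.67 to 3.85 CPM in PBS mice (log2 fold change 0.53, adjusted p = 0.00771) and from 3.59 to 6.08 CPM in STZ mice (0.76, adjusted p = 8.85e-05). With STZ it rose in cKOt mice (0.65, adjusted p = 0.00143). Abcc1 and Abcc5 were called in no contrast.

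Of 9 further SLCO and MATE genes 5 were tested. Slco1a1, an abundant organic anion carrier of the male proximal tubule, fell in all 4 contrasts, with means of 911.5 CPM in PBS-control, 561.4 in PBS-cKOt, 547.6 in STZ-control and 273.1 in STZ-cKOt. It was 1.62-fold lower with genotype in PBS mice (adjusted p = 0.0260) and 2.01-fold lower in STZ mice (adjusted p = 0.00163). Slco1a4 fell with genotype in PBS mice (-0.68, adjusted p = 0.00910). Slc47a2, the second MATE gene, rose with STZ in controls (1.29, adjusted p = 0.000818) and in cKOt mice (1.03, adjusted p = 0.00627), opposite to Slc47a1, at means of 0.385 to 0.949 CPM.

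The listed Slc22 carriers of organic ions were lower where called. Of the 5 listed, 2 fell with genotype in PBS mice, 4 in STZ mice, 1 with STZ in controls and 3 in cKOt mice. None rose. The shares of all tested genes that fell were 12.5%, 10.1%, 5.93% and 5.63% in the same order. Slc22a8 (OAT3), an uptake carrier of organic anions, fell in all 4 contrasts, with means of 433.3 CPM in PBS-control, 226.2 in PBS-cKOt, 324.1 in STZ-control and 141.5 in STZ-cKOt. Slc22a6 (OAT1) fell with genotype in PBS mice (-0.21, adjusted p = 0.0362) and STZ mice (-0.29, adjusted p = 0.00440). Slc22a7, also in the late-segment marker list, fell with STZ in cKOt mice (-0.86, adjusted p = 0.00504) and with genotype in STZ mice (-0.74, adjusted p = 0.00897). Slc22a2 (OCT2), the uptake partner of MATE1 for organic cations, fell in the same pair of contrasts (-0.27, adjusted p = 0.0153, and -0.23, adjusted p = 0.0338).

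Regulators known to act on transporter genes changed in both directions. Of 9 tested, 2 rose and 1 fell with genotype in PBS mice and 2 rose in STZ mice. With STZ, 1 rose and 2 fell in controls, and 2 rose and 1 fell in cKOt mice. Of all tested genes 23.4%, 19.6%, 12.3% and 11.6% were called in these contrasts, in that order. Nr1i2, the drug-sensing pregnane X receptor, rose in cKOt by 0.86 (adjusted p = 2.90e-06) in PBS mice and 0.67 (adjusted p = 0.000194) in STZ mice, at means of 3.95 to 7.31 CPM. Nfe2l2, which encodes the oxidative stress factor NRF2, rose by 0.25 (adjusted p = 6.22e-05) and 0.26 (adjusted p = 3.03e-05). Hnf4a, a factor of proximal tubule and liver identity, fell with STZ in controls (-0.26, adjusted p = 0.0115) and cKOt mice (-0.29, adjusted p = 0.00439).

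The PAR-bZIP factors, clock outputs known to drive genes of drug metabolism and transport, and their repressor Nfil3 were changed by genotype. In PBS mice all 4 were called, 1 higher and 3 lower: Dbp at -2.21, Tef at -1.19, Hlf at -0.21 and Nfil3 at 3.47 on the log2 scale. In STZ mice 3 were called, Dbp at -2.15, Tef at -0.90 and Nfil3 at 2.61. Genotype called 23.4% of all tested genes in PBS mice and 19.6% in STZ mice. The summed level of the 4 genes was 405.2 CPM in the library labelled STZ-control 2, inside the STZ-cKOt range of 348.6 to 423.7, and 622.7 to 735.6 CPM in the other 8 STZ-control libraries. Without that library the values in STZ mice were -2.29 for Dbp, -0.96 for Tef and 3.08 for Nfil3. In it Slco3a1 (226.0 CPM), Slco1a6 (246.8 CPM), Abcb1b (4.03 CPM) and Abcc2 (451.8 CPM) lay outside the STZ-cKOt ranges given above. So did Abcc4 (41.9 CPM), Abcg2 (484.7 CPM) and Slco4c1 (7.53 CPM). Abcb1a (2.77 CPM), Slc47a1 (598.3 CPM) and Slco2b1 (31.8 CPM) lay inside their STZ-cKOt ranges. The ratio of Abcb1b to Abcb1a was 1.46 there, against 2.84 or more in STZ-cKOt. Whether the label of this library is right was not tested. Of 4 listed scaffold and linker genes of the brush border, whose proteins help anchor transporters to the membrane, 2 fell with genotype under each treatment. These were Pdzk1 at -0.39 and -0.25, and Slc9a3r1 at -0.23 and -0.39. Among all tested genes 12.5% fell with genotype in PBS mice and 10.1% in STZ mice.

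For each member the genes of most similar level were taken as those with the highest Pearson r of log2 CPM over the 36 libraries, among 12637 genes with a mean of at least 2 CPM. These are descriptions, since libraries of 1 group share genotype and treatment. Slco3a1 had the closest, Nudt19 (r = 0.97), Ldhd (0.97) and Tmco3 (0.96). Abcc4 was closest to Kynu (0.93), Akr1c13 (0.86) and Fbxo32 (0.85), and Slc47a1 to Cbs (0.92), Acat1 (0.91) and Anxa13 (0.90). Abcb1a was closest to Tln2 (0.85), Cyp2a5 (0.85) and the clock gene Per3 (0.84), whereas Abcb1b was closest to Hao2 (0.89), Fmo4 (0.89) and the prolactin receptor gene Prlr (0.88).

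Slco1a6 was closest to Abhd3, Ugt3a2 and Gas2 (0.91 each), and Abcc2 was close to Prrg4 and Arhgap21 (0.91 each). Abcg2 was closest to Smpdl3a (0.87) and to Suclg2 (0.84) and Sucla2 (0.83), subunit genes of succinyl-CoA synthetase. Slco2b1 was closest to Prelp (0.91), Sdc3 (0.90) and Mpeg1 (0.89), the last a macrophage gene. Slco4c1 was close to Panct2 (0.85) and Nckap5 (0.72).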

How the data were processed

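The deposited files hold raw read counts per gene made by the authors, 1 file per library. GRCm38, cutadapt 1.8, STAR 2.5.3a and HTSeq 0.9.1 are named, without roles, per the submitters' processing notes. Per the labels' protocols, libraries came from 500 ng of total RNA with a stranded mRNA kit; how strand was handled, the counting options and the annotation used are not given in the sources used here. Each file has 53715 genes and 5 entries that name no gene, left out here: of all counted reads, 30.9% to 42.8% per library were not uniquely aligned, 3.64% to 6.38% lay in no gene and 0.582% to 0.738% were ambiguous. No 2 libraries were identical, and the chi-square per gene of same-group pairs was 5.85 or more. Titles number the samples within groups; nothing states that they are separate litters or batches, and p-values measure the spread between these samples.

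Symbols and coordinates come from GENCODE M21 (GRCm38). Tests used edgeR 4.0.16 (R 4.3.3): filterByExpr left 15637, TMM scaling, 1 mean per group over all 36 libraries (32 residual degrees of freedom), quasi-likelihood F tests, and Benjamini-Hochberg adjustment over all tested genes with a threshold of 0.05. CPM use the TMM library sizes, and standard errors follow from the F statistic. On simulated counts for cKOt against control in PBS mice (15637 genes), 76% of genes changed 1.5-fold and 92% of those changed 2-fold were recovered, with 7.18% of calls false. Alternatives were DESeq2 1.42.0, its size factors in edgeR, limma 3.58.1 voom with quality weights, other filters, fits of only the groups compared, a replicate block, and libraries left out. Leaving out STZ-control 9 was chosen after seeing the data, outside the planned settings. The omissions of STZ-control 2 and of the 4 libraries that stood apart also rest on these same counts. Same-numbered libraries are not taken as pairs.

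The members and lists were chosen with earlier results of these data known. Named are all members, at most 3 genes per list and contrast with the smallest adjusted p, and the 3 genes most similar to each member, of which 2 are not reported here. Motif and sequence searches used RefSeq promoters and GENCODE transcripts.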

Additional observations from a re-analysis of the deposited data

Results flagged for a closer look

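Abcb1b stood at 10.5 CPM in STZ-control replicate 9, far above the other 8 libraries of its group, the next of which had 6.77 CPM. It was the only such distant value among 40 combinations of transporter and group of 9 libraries. Chance alone gives about 1 in every 20 independent combinations, and 1 in 40 is no more than that. The 40 combinations share libraries, so that rate cannot decide whether this value is due to chance. The same library was the highest of its group for Abcc4 (106.3 CPM), Abcc2 (583.9 CPM) and Abcb1a (5.78 CPM) and the lowest for Slc47a1 (557.1 CPM) and Slco3a1 (152.0 CPM).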

How the results depend on the processing

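Over 490 values of a transporter in a contrast under another setting, 0 called values changed sign, 470 stayed on their side of the threshold, 7 lost the call and 13 gained it. The calls of Abcb1a, Abcb1b, Slco1a6 and Slco3a1 with genotype, and of Abcc4, Slc47a1 and Slco3a1 with STZ, held under every setting run. In cKOt against control with STZ, Slc47a1 lost its call with voom (-0.14, adjusted p = 0.0524), with no filter on low counts (-0.16, adjusted p = 0.122) and with only the groups compared (-0.17, adjusted p = 0.1002). Abcc2 gained one with voom (-0.27, adjusted p = 0.0112), Slco4c1 gained one with voom (0.85, adjusted p = 0.0168), and Slco2b1 lost its call with no filter (-0.35, adjusted p = 0.0737). In PBS mice Slco4c1 was called with only the groups compared (0.59, adjusted p = 0.0446), which made 2 higher rather than 1. With no filter, 9.87% of all genes were called with genotype in PBS mice rather than 23.4%, as more genes were tested, and 3 members rather than 5 were lower in STZ mice; the share of all genes was 8.38% there, and 4.5% and 4.47% with STZ in control and cKOt mice. Without the 4 libraries with fewer counts from long genes, 1 member rather than 2 was higher in cKOt with STZ. The interaction was called for 0.019% to 0.151% of all genes over the settings. For Slco1a6 with STZ in cKOt mice the adjusted p was 0.0113 to 0.0491 under 6 settings that gained the call.

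The replicate block called 6, 7, 5 and 4 members in the 4 contrasts and 0 in the interaction, against 6, 7, 4, 3 and 0 without it. It gained Abcg2 with STZ in controls (-0.18, adjusted p = 0.0273) and Slco1a6 with STZ in cKOt mice (-0.26, adjusted p = 0.0221). Deviations of same-numbered libraries had a median r of 0.02 (18 of 54 pairs over 0.1). Pairs of libraries with other numbers had a median r of 0.0006 (130 of 432 over 0.1). In all, 6 of 36 libraries correlated best with their own number. Abcb1a had 32 to 131 reads per library, the fewest of the 10, which limits its precision. No library of a group other than STZ-control 2 and 9 was left out alone.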

Other observations

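Within groups, some transporters varied together from mouse to mouse. After each group's mean was removed, log2 CPM of Abcb1a and Abcb1b had r = 0.67 over the 36 libraries, whereas without that step r was -0.44, since genotype moved them apart. The same deviations gave r = -0.74 for Abcc4 with Slc47a1, -0.70 for Abcc4 with Slco3a1, 0.68 for Abcc4 with Abcb1b and 0.53 for Slc47a1 with Slco3a1. These are descriptions: the 2 values of a point share a library and its scaling, the Abcb1 pair shares sequence, and no test was made.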
